A study of Mus musculus with 9 samples.

Results

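The 9 genes described here encode integrin subunits known from T cells: the alpha subunits Itga1, Itga4, Itga6, Itgae, Itgal and Itgax and the beta subunits Itgb1, Itgb2 and Itgb7. They were chosen by name, not by a cut on a measured value, from the 22238 protein-coding gene symbols of the mm9 annotation. Earlier results of these data were known when they were chosen. All 9 had islands of the histone mark H3K27ac in both genotypes, as did 16387 of the 22238 genes. For each gene, the islands that overlapped the gene body or the 50 kb upstream of its first annotated transcription start site (TSS) were collected, and their counts and widths were summed.

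H3K27ac, an acetylation of histone H3 found at active promoters and enhancers, was profiled by chromatin immunoprecipitation and sequencing in naive splenic CD8+ T cells purified from mice by sorting. WT mice were hCD2-Cre+ Rosa26GFP Tcf7+/+ Lef1+/+, and dKO mice were hCD2-Cre+ Rosa26GFP Tcf7fl/fl Lef1fl/fl, so that both groups carried the Cre transgene and the GFP reporter that marks cells in which Cre has acted. The hCD2-Cre transgene deletes mainly after T cells have left the thymus, and Tcf7 and Lef1 encode the transcription factors Tcf1 and Lef1. The 9 samples were 4 WT and 3 dKO samples of H3K27ac and 1 input sample of each genotype, and the authors called islands on the pooled samples of a genotype. Each genotype therefore has a single list of islands, no value exists for an individual sample, and no difference below has a replicate check or a p-value. In such bulk material, fewer cells that carry the mark and less of the mark per cell cannot be told apart.

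Integrins are adhesion receptors made of an alpha and a beta chain, and they switch from a resting to an active form when signals inside the cell bring talin and kindlin to the beta chain tail. In T cells, Itgal pairs with Itgb2 as LFA-1, which binds ICAMs on other cells, and Itga4 pairs with Itgb1 as VLA-4 or with Itgb7 as the gut-homing receptor for MAdCAM-1. Itgae, also called CD103, pairs with Itgb7 in a receptor that binds E-cadherin on epithelium and marks many tissue-resident T cells, Itga6 and Itga1 pair with Itgb1 as receptors for laminin and collagen, and Itgax, also called CD11c, pairs with Itgb2 and is a dendritic cell marker that some activated T cells also carry.

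Among the positions the study linked to genes were 2 accessible chromatin sites paired with integrin genes, and their sequences are shown because they mark the places of the open chromatin within the islands described below. The Itgae site, listed among the sites with more accessibility in dKO cells, was at chr11:72909095-72909311 in mm9, in an intron 5.0 kb past the TSS. The Itga6 site, listed among the sites with less accessibility in dKO cells, was at chr2:71648213-71648381 in mm9, in an intron 64.5 kb past the first annotated TSS. Both are written 5′ to 3′ on the plus strand, and capitals mark every match, on either strand, to the letters searched: ATCAAAG and TTCAAAG for Tcf/Lef, TGTGGT for Runx and GGAAG for ETS.
Itgae site: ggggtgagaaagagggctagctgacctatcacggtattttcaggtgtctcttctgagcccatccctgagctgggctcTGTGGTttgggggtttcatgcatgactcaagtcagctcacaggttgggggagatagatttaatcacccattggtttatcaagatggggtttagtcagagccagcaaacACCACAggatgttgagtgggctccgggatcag
Itga6 site: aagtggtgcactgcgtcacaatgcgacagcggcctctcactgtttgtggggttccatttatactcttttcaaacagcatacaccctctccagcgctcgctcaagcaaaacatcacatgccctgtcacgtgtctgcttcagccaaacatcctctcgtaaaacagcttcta

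The Itgae site of 217 bases held 2 matches to the Runx letters and none to the others, and the Itga6 site of 169 bases held no match to any of them. Promoter sequences, 250 bases before to 50 bases after a gene's start, were found in RefSeq (GRCm38.p6 build) for 5 of the 9 genes: Itga1, Itga4, Itgax, Itgb1 and Itgb7. Over the 300 bases, a match to the Tcf/Lef letters was found in Itga1 alone among the 5, and 8.7% of all 32851 promoters of the table hold one. Runx letters were matched in Itga4 and Itgax (16.8% of all promoters), and ETS letters in Itga1, Itgax, Itgb1 and Itgb7 (71.4% of all promoters). The letters searched for the 3 factors did not overlap each other in these sequences. The first 250 bases are shown for Itga4 and Itgb1, whose promoter islands had the lower dKO counts described below, and for Itga1, whose promoter had no island in either genotype. They lie at chr2:79255176-79255425 on the plus strand, chr8:128685404-128685653 on the plus strand and chr13:115101965-115102214 on the minus strand of GRCm38.p6, and each is written in the direction of transcription with capitals as above.
Itga4 promoter: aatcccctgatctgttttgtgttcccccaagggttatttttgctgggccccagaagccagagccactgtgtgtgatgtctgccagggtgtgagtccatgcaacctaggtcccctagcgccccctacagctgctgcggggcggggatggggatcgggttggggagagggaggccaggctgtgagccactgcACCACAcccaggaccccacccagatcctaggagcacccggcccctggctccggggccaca
Itgb1 promoter: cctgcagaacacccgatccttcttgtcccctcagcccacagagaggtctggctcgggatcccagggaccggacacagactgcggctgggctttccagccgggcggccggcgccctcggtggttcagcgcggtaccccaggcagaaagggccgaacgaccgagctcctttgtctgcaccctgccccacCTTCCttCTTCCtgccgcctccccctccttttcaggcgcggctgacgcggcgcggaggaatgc
Itga1 promoter: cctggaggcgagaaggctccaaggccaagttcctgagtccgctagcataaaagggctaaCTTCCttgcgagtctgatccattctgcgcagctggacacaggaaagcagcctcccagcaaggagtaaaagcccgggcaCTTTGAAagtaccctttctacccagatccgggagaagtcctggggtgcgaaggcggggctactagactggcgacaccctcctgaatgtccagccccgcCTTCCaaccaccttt

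The WT list held 65563 islands with 82668007 counts over 392.7 Mb, and the dKO list held 82213 islands with 57665047 counts over 429.3 Mb. Counts were therefore divided by the total of their own list and given as CPM, that is, scaled to the same fixed total in both lists, and log2 ratios are dKO to WT, so that a value above 0 is higher in dKO. All 9 CD8 T cell markers examined had an island over the promoter in both lists. Their summed promoter-island level was 2147.3 CPM in WT and 2415.0 CPM in dKO, with an island shared by markers counted for each of them. In WT, Cd8a and Cd8b1 had the same 29951 counts, and Cd3d and Cd3g the same 13506. In dKO, Cd3d and Cd3e had the same 12395 counts, so the sums also depend on which islands were joined. Cd8a (362.3 and 134.9 CPM), Cd8b1 (362.3 and 156.65 CPM) and Lck (200.1 and 175.2 CPM) were lower in dKO. The other CD8 T cell markers were higher, with Cd247 at 351.3 and 803.6 CPM. The 3 markers of naive cells also had promoter islands in both lists, with 878.5 CPM summed in WT and 409.6 CPM in dKO. Promoter islands were also present at 5 of 5 myeloid markers (44.7 CPM summed in WT, 93.5 CPM in dKO, with Mpo at 12.4 and 71.6 CPM and the other 4 lower in dKO), at 3 of 5 B cell markers in WT and 4 of 5 in dKO (199.3 and 219.1 CPM), at 1 of 3 NK cell markers in both (49.9 and 64.3 CPM), at 2 of 3 erythroid markers in both (29.9 and 45 CPM) and at both CD4 T cell markers (59.0 and 76.6 CPM). Ebf1, Ncr1, Klra8 and Epor had none in either list. Over the targeted genes, whose islands check no deletion because the mark can remain on a gene with an excised exon, the log2 ratio was 0.17 at Tcf7 and -0.30 at Lef1.

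None of the 9 integrin genes reached a ratio of 1.5 in either direction (log2 of 0.58), by scaled counts or by scaled counts per covered kb. Among all 16387 genes with islands in both lists, 11.5% were past that ratio in the higher and 11.5% in the lower direction by counts, and 0.421% and 9.28% by counts per kb. By counts, 5 of the 9 genes were above 0 (47.5% of all genes) with a median log2 ratio of 0.01 against -0.03 for all genes. By counts per kb, only Itgae was above 0 (20.6% of all genes were), and the median was -0.15 against -0.16. The median log2 ratio of covered width was 0.15, with 6 of the 9 genes wider in dKO, against 0.17 and 65.1% of all genes. The integrin genes thus lay within the bulk of the genome by every one of these measures, as the plot of the count ratio against the density ratio shows.

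**Figure D1:**
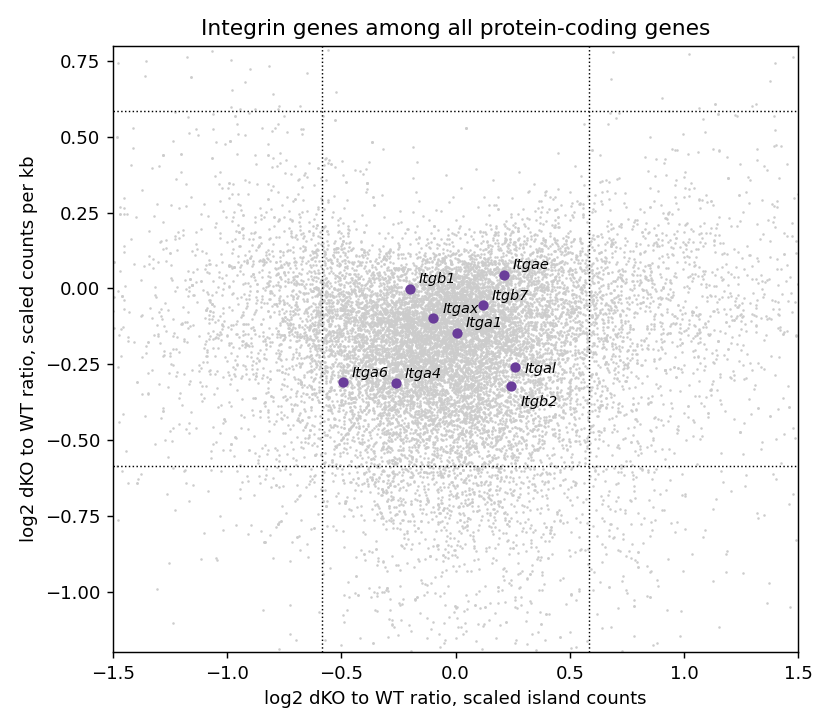
Log2 dKO to WT ratio of scaled island counts (x axis) against that of scaled counts per covered kb (y axis) for the 9 integrin genes (purple) among the 16387 protein-coding genes that had islands in WT and dKO (grey, axes cut at the limits drawn); dotted lines mark a ratio of 1.5. All 9 genes sit inside the dotted square, between -0.49 for Itga6 and 0.26 for Itgal on the x axis.

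The order of the genes by level per length differed between the genotypes. In WT cells Itgal had the highest level, 3.27 CPM per covered kb (95% counting interval 3.22 to 3.31), and Itgb2, Itga4 and Itgb7 followed at 3.10, 3.07 and 3.04, apart from Itgal but with intervals that overlapped from each to the next. Itgae (2.72) and Itga6 (2.67) came next with overlapping intervals, then Itga1 (2.52) and Itgax (2.504), also overlapping, and Itgb1 was lowest at 2.18. In dKO cells Itgb7 was highest at 2.92 CPM per kb, and Itgae was next (2.80), not separable from Itgal (2.73). Itgb2 (2.48) and Itga4 (2.47) overlapped, and Itgax (2.34), Itga1 (2.28), Itgb1 (2.18) and Itga6 (2.15) formed a run in which each overlapped the next. The intervals cover counting error only, since reads are not distinct molecules without molecular identifiers, and the spread between mice was lost in the pooling. The median of all genes was 2.74 in WT and 2.38 in dKO.

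**Figure D2:**
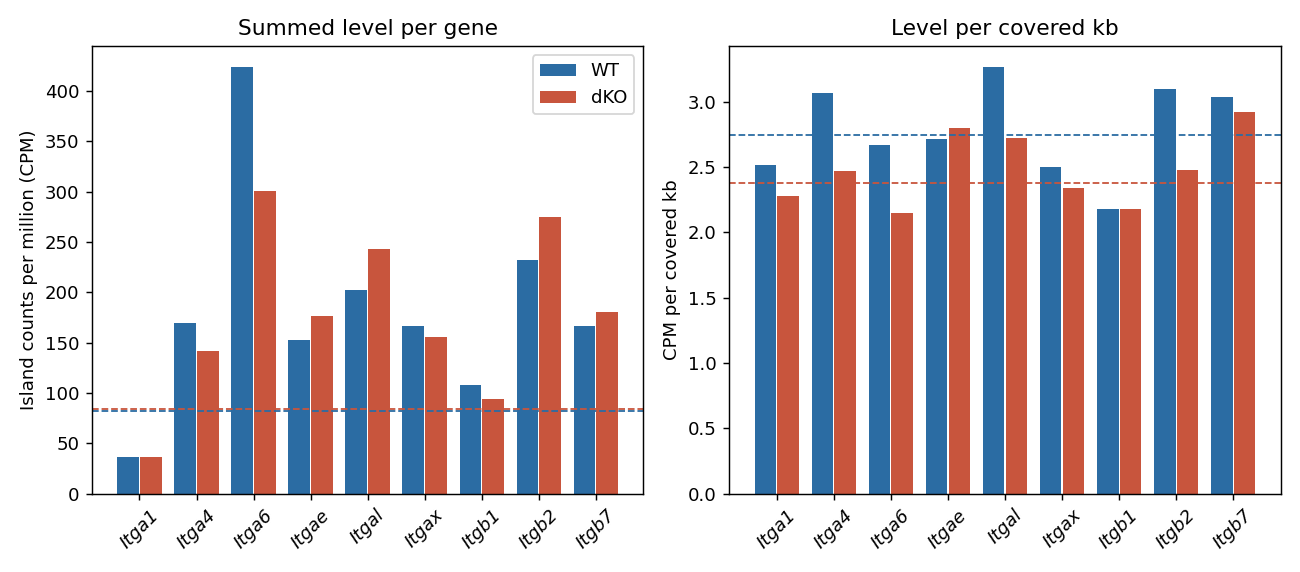
Level of each integrin gene in WT (blue) and dKO (red) as summed island CPM (left) and CPM per covered kb (right); each bar is 1 pooled list, so it has no replicate error, and dashed lines are the medians of all genes. Itga6 had the most summed CPM in both genotypes (423.4 and 300.7), and Itgae alone was higher per kb in dKO (2.72 and 2.80).

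Itga6 (chr2:71583673-71696473, plus strand, mm9) had the lowest ratio of the 9 genes by whole-island counts. Per kb, Itgb2 (-0.32) and Itga4 (-0.31) were marginally lower, and Itga4 was also lower by counts with the window limited to 10 kb upstream (-0.57 against -0.44 for Itga6) or with island counts taken in proportion to the overlap (-0.33 against -0.30). Its islands held 35000 WT counts across 158.8 kb and 17340 dKO counts across 139.8 kb, a log2 ratio of -0.49 (counting interval -0.52 to -0.47), with 15% of all genes lower. Per covered kb the log2 ratio was -0.31. In WT a single island of 57.6 kb ran from 16.7 to 74.3 kb past the first TSS, with 15305 counts, and covered the cluster of 4 TSSs at 41.3 to 41.5 kb. In dKO the same stretch held 4 islands, of 632, 681, 327 and 6237 counts, and the largest of them ran from 37.9 to 74.5 kb over the same TSSs. Over the merged stretch the log2 ratio was -0.44 by counts and -0.35 per kb, so that the density was lower as well as the covered width (57.6 and 54.0 kb).

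The accessible site shown above lay in this island, and for the islands over it alone the count ratio was -0.78 and the density ratio -0.12 on the log2 scale. The first annotated TSS of Itga6 had a weak island in both genotypes (728 WT and 513 dKO counts, log2 ratio 0.01). A WT island of 1259 counts, from -56.9 to -46.5 kb, and 2 gene-body islands of 310 and 135 counts had no overlapping island in dKO, while dKO had 1 island of its own of 187 counts. At the 3′ end, an island that runs into Pdk1, the gene of a pyruvate dehydrogenase kinase, had 7750 counts in WT and its 2 dKO counterparts had 3989 (log2 ratio -0.44, per kb -0.40). The Itga6 total took this WT island whole but only 2315 of the dKO counts, since the other dKO island lay past the window. Islands over promoters of other genes held 33.9% of the Itga6 counts in WT and 15.6% in dKO. Both these shares and the gene ratio of -0.49 depend on this window edge. With counts in proportion to the overlap, the gene ratio was -0.30.

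Itga4 (chr2:79095583-79173280, plus strand) had most of its counts at its promoter in WT. The promoter island had nearly the same extent in both genotypes, 17.6 kb against 17.4 kb, from about 8 kb before to 9.4 kb past the TSS, with 7321 WT and 3416 dKO counts. Its level was 5.03 CPM per kb in WT and 3.40 in dKO, so that with nearly equal borders the log2 ratio was -0.58 by counts (interval -0.64 to -0.52) and -0.56 per kb, just short of the 1.5 ratio. Among all gene promoters with an island in both lists, 18.8% had a lower ratio per kb. The next island into the gene, from 10.2 to 17.8 kb, had a log2 ratio of -0.45, whereas the upstream island from -29.2 to -17.8 kb had -0.09 and those between -36.4 and -32.2 kb had 0.09 and 0.15. Farther upstream, the region from -44.2 to -39.0 kb (652 WT and 289 dKO counts) had -0.65 by counts and 0.05 per kb, and the region from -53.8 to -48.2 kb (496 and 552 counts) had 0.67 and 0.04, so that these smaller regions differed in covered width more than in density. The whole gene, at 14045 counts in WT and 8177 in dKO, had a log2 ratio of -0.26 (interval -0.30 to -0.22), and no other promoter lay in its islands. The dKO total took the 552 counts of the farthest region, but the WT total took none of its 496, since that WT island lay past the window. With counts in proportion to the overlap, the gene ratio was -0.33.

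Itgae (chr11:72904085-72960948, plus strand) was the only gene of the 9 with a density ratio above 0. It had 12573 WT counts across 56.0 kb and 10149 dKO counts across 62.8 kb, with log2 ratios of 0.21 (interval 0.17 to 0.25) by counts and 0.05 per kb. The promoter island, which also holds the accessible site, had 6121 WT counts across 24.4 kb and 5116 dKO counts across 22.6 kb, or 3.04 and 3.93 CPM per kb. This dKO island was narrower and denser, with log2 ratios of 0.26 by counts (interval 0.21 to 0.31) and 0.37 per kb. Of all gene promoters, 94.6% had a lower ratio per kb. The WT island also overlapped a second dKO island, of 246 counts across 3.4 kb. Over the merged stretch dKO covered 26.0 kb against 24.4 kb in WT, with log2 ratios of 0.33 by counts and 0.24 per kb. The second intragenic stretch, from 9.3 to 26.7 kb, had log2 ratios of -0.16 by counts and 0.13 per kb, and the end of the gene had a WT island of 705 counts with no dKO counterpart. Upstream, dKO had 3 islands with no WT counterpart, of 666, 127 and 163 counts.

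Also upstream of Itgae, an island at -44.5 to -41.1 kb, over an annotated promoter of 1200014J11Rik, was among the densest of the integrin windows in WT, at 5.75 CPM per kb over 3.4 kb. In dKO it was 9.0 kb wide at 2.497 CPM per kb, a log2 ratio of 0.20 by counts and -1.202 per kb, the lowest density ratio of all the integrin regions. Islands over promoters of other genes, 1200014J11Rik and Gsg2, held 19.0% of the Itgae counts in WT and 19.5% in dKO.

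Itgal (chr7:134439774-134478651, plus strand) had 16733 WT counts across 62.0 kb and 13992 dKO counts across 89.0 kb, with log2 ratios of 0.26 (interval 0.23 to 0.29) by counts and -0.26 per kb. The opposite signs came with a width ratio of 0.52 on the log2 scale. In WT, 3 separate islands covered the Sephs2 promoter (2574 counts), the Gm17511 promoter (4681 counts) and the Itgal promoter (3380 counts, 12.0 kb), and in dKO a single island of 43.2 kb and 7718 counts spanned all of them. The log2 count ratio of the island over the Itgal promoter alone was thus 1.71, but the merged stretch had 0.06 by counts and -0.16 per kb. A further dKO island of 1687 counts ran from 17.6 to 36.2 kb through the gene body, where WT had none. It was weak, at 1.57 CPM per kb against 3.10 in the dKO promoter island. The covered share of the gene body was 32.1% in WT and 96.9% in dKO, an increase larger than that of 98.4% of all genes, for which the median share was 36.2% in WT and 46.6% in dKO. With the gene body alone as the window, Itgal had a log2 ratio of 1.84, with 10 kb upstream 0.72, and with islands given to the nearest TSS 1.996, all past the 1.5 ratio. Islands over promoters of other genes held 75% of the Itgal counts in WT and 82.7% in dKO.

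Itgb2 (chr10:76992997-77028453, plus strand), the partner of Itgal, had the same pattern. It had 19145 WT counts across 74.8 kb and 15821 dKO counts across 110.8 kb, with log2 ratios of 0.24 (interval 0.21 to 0.27) by counts and -0.32 per kb, the lowest density ratio of the 9 genes. These totals took whole a WT island of 4430 counts at the 3′ end, over the Pttg1ip promoter. They took only 1561 of the 3156 dKO counts there, since the other dKO island lay past the window. Over that whole region the log2 ratio was 0.03 by counts and -0.235 per kb. At the upstream edge the totals took whole a dKO island of 3566 counts that reached to -75.0 kb. Of the 1824 WT counts in that stretch they took only 1458. With counts in proportion to the overlap, the gene ratio was 0.25. The WT promoter island (7085 counts, 19.0 kb, 4.51 CPM per kb) and the upstream island over the 1810008A18Rik promoter (5313 counts, 21.6 kb) were 1 island in dKO (8616 counts, 42.4 kb, 3.52 CPM per kb). Over the merged stretch, the log2 ratio was -0.01 by counts and -0.07 per kb. Coverage was also wider on either side: 2 islands of the gene body, of 315 and 795 counts, were found in dKO alone, and the upstream stretch from -75.0 to -42.6 kb was covered across 12.0 kb by WT islands of 1824 counts and across 32.4 kb by a dKO island of 3566 counts (log2 ratio 1.49, per kb 0.05). The covered share of the gene body was 46.4% in WT and 90.4% in dKO, an increase larger than that of 95.5% of all genes. The direction by counts turned to -0.06 with 10 kb upstream as the limit and reached 0.98 with islands given to the nearest TSS. Islands over promoters of other genes held 50.9% of its counts in WT and 54.5% in dKO.

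Itgb7 (chr15:102046426-102062366, minus strand) had 13722 WT counts across 54.6 kb and 10390 dKO counts across 61.6 kb, with log2 ratios of 0.12 (interval 0.08 to 0.16) by counts and -0.06 per kb. Its promoter island was broad in both genotypes, 41.2 kb in WT and 53.6 kb in dKO, with 11008 and 9085 counts, and also covered the promoter of Rarg, a retinoic acid receptor gene. In dKO it had joined the neighbouring WT island of 1264 counts, and the merged stretch had log2 ratios of 0.09 by counts and -0.01 per kb. Islands over promoters of other genes, Rarg and Mfsd5, held 90.8% of the Itgb7 counts in WT and 100% in dKO, so the values cannot be given to Itgb7 alone.

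Itgb1 (chr8:131209554-131257100, plus strand), the common beta chain of the VLA receptors, had 8936 WT counts across 49.6 kb and 5427 dKO counts across 43.2 kb. The log2 ratio was -0.20 (interval -0.25 to -0.15) by counts and -0.00 per kb. In contrast to the broad islands of Itgb2 and Itgb7, its promoter island was narrow and the densest of all islands in the integrin windows: 3.2 kb at 8.67 CPM per kb in WT and 2.2 kb at 7.85 CPM per kb in dKO. It held 2294 and 996 counts, a log2 ratio of -0.68 (interval -0.79 to -0.58) by counts and -0.14 per kb. The dKO island ended at the same place and began 1.0 kb closer to the TSS. The upstream islands from -42.8 to -26.4 kb had log2 ratios of 0.06 by counts and 0.11 per kb, and the small islands of the gene body differed in both directions. A gene-body island of 338 counts was found in WT alone, and 2 of 94 and 106 counts in dKO alone.

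Itga1 and Itgax, the remaining alpha chains, were close to a ratio of 1. Itga1 (chr13:115748287-115892172, minus strand) had 2998 WT counts across 14.4 kb and 2101 dKO counts across 16.0 kb, a log2 ratio of 0.01 (interval -0.07 to 0.09). Neither its promoter nor the 50 kb upstream held an island in either genotype, and the covered share of the window was 7.4% in WT and 8.3% in dKO. The strongest island, with 67.4% of the counts in WT and 68.1% in dKO, covered the promoter of Pelo, a ribosome rescue factor gene that lies within an Itga1 intron. Itgax (chr7:135273061-135294171, plus strand) had 13743 counts in WT and 8957 in dKO over 66.4 kb in each, a log2 ratio of -0.10 (interval -0.14 to -0.06) by either measure. Its gene body was covered whole in both genotypes, but islands over the promoters of Itgam and Itgad, which encode the integrin chains next to it, held 88.2% of the counts in WT and 84.3% in dKO.

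**Figure D3:**
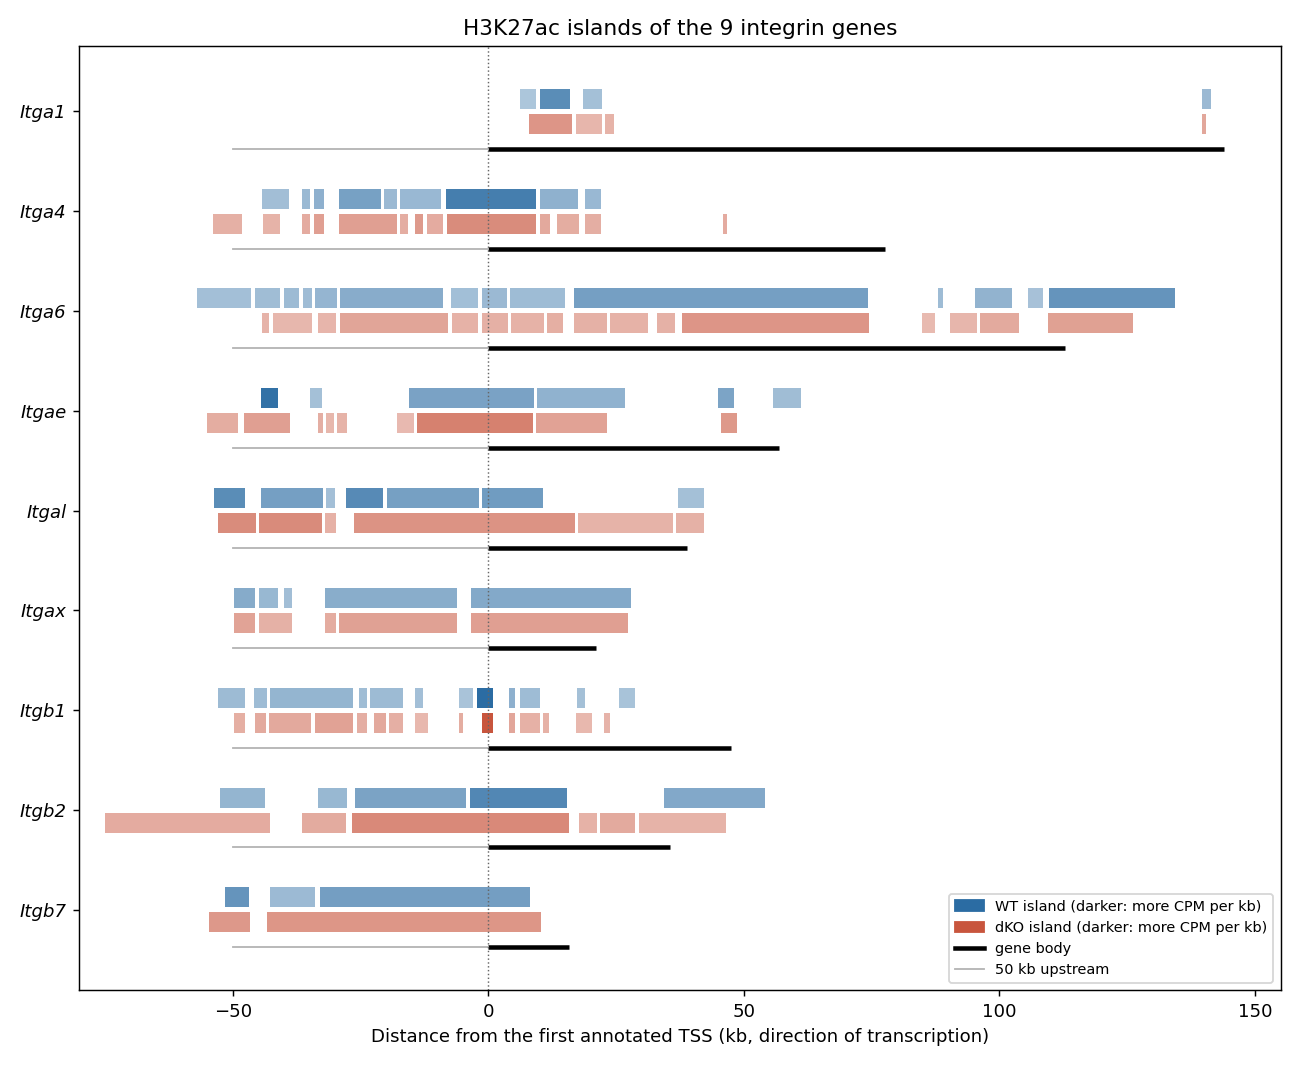
Islands of the 9 integrin genes by distance from the first annotated TSS (x axis, kb, in the direction of transcription) for WT (blue) and dKO (red), with darker bars for more CPM per kb, the gene body in black and the 50 kb upstream in grey. The 57.6-kb WT island of Itga6 is in 4 pieces in dKO, the separate WT islands at Itgal and Itgb2 are joined in dKO, and the Itga1 TSS lies in no island.

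Over promoters, 8 of the 9 genes had an island in both lists. By counts, 2 of the 8 were past the 1.5 ratio in the higher direction, Itgal (1.71) and Itgb2 (0.80), and 1 in the lower, Itgb1 (-0.68), against 13.1% and 19.9% of 13491 gene promoters. Per kb, none of the 8 was past it, against 2.11% higher and 17.4% lower of all promoters. The median of all promoters was -0.23 by counts and -0.20 per kb, and 7 of the 8 integrin promoters were below 0 per kb, with Itgae the exception.

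Islands of the WT and dKO lists that overlapped by at least 1 bp were merged into regions, which may reach beyond the window of a gene. The 9 genes had 68 such regions, of which 52 held islands of both lists, 5 of WT alone (7.4%) and 11 of dKO alone (16.2%). Over all 76633 regions the shares were 12.8% and 28.1%. By counts, 4 of the 52 were past the 1.5 ratio higher (7.69%) and 6 lower (11.5%), against 11.1% and 14.6% of all 45322 shared regions. Per kb, none was higher and 1 was lower (1.92%), the Itgae upstream region named above, against 1.17% and 4.51%. More islands in dKO than in WT were found in 12 of the 52 regions (23.1%) and fewer in 9 (17.3%), against 17.6% and 9.8% of all shared regions. The 9 gene ratios ranged from -0.49 to 0.26 by counts, and the ratios of single regions covered a wider range than that within 6 of the genes and a narrower one within Itgal, Itgax and Itgb7. The regions of Itgb1 ranged from -1.22 to 0.90, those of Itgb2 from -0.01 to 1.49 and those of Itgal from 0.06 to 0.46. The outer values belonged to small regions, such as 288 WT and 86 dKO counts for the lowest of Itgb1.

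**Figure D4:**
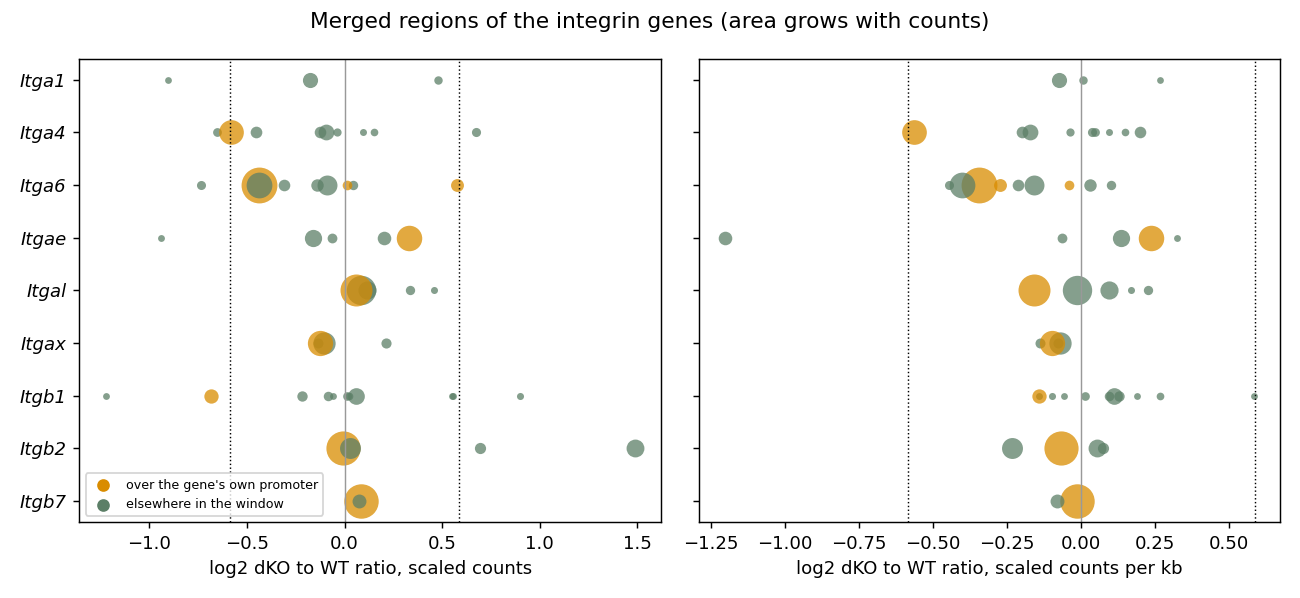
Log2 dKO to WT ratio of scaled counts (left) and of scaled counts per kb (right) for the 52 shared regions, by gene; orange regions cover a promoter of the named gene, the area of a point grows with its counts, and dotted lines mark a ratio of 1.5. Per kb, the Itga4 promoter region stands at -0.56 and the Itgae promoter region at 0.24, and the Itgae upstream region at -1.202 is the only point past a dotted line.

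Super enhancers (SEs), long clusters of strongly acetylated islands, were called from each list by joining islands that lie closer than the ROSE default and ordering the joined regions by counts, which gave 1138 SEs in WT and 973 in dKO. The promoter of 6 integrin genes lay in an SE in WT (Itga4, Itga6, Itgal, Itgax, Itgb1 and Itgb7) and of 8 in dKO, where Itgae and Itgb2 were added. Of all 22238 genes, 20.6% had a promoter in an SE in WT and 26.4% in dKO. Only Itga1 was in none. With a joining distance of 5 kb the numbers were 5 and 6, and with 20 kb they were 8 and 8. The rank of the Itgal region was 67 in WT and 8 in dKO, but the region was 347.2 kb long in WT and 959.2 kb in dKO and held promoters of many other genes. The Itgae region grew from 42.2 to 211.4 kb and its rank went from 2250 to 582, and the Itgb2 region grew from 71.8 to 239.2 kb and its rank went from 1461 to 469. The Itga6 region went from rank 377 to rank 761 and from 249.8 to 187.4 kb. Ranks moved with the joined length, whose part in them was not tested.

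The study paired 3 larger intervals with integrin genes. It made these pairings, and those of the accessible sites, only for genes it had listed as changed in RNA between the genotypes. An integrin gene without a pairing may therefore still lie in such an interval. The SEs were chosen on the same H3K27ac samples, so their direction is not independent evidence. The hub was called by the authors from chromatin contacts (Hi-C) in WT and dKO cells, not from these samples. The SE listed as prepotent in WT for Itga6 (chr2:71408201-71827800) had 57998 counts in WT and 29476 in dKO, with log2 ratios of -0.46 by counts and -0.14 per kb. The WT-specific chromatin interaction hub at Itga6 (chr2:71580001-71740000) had 27748 and 15739 counts, with -0.30 by counts and -0.34 per kb. The SE listed as prepotent in dKO for Itgae (chr11:72716001-72927400) had 24984 and 24346 counts, with 0.48 by counts and -0.09 per kb, and its covered width was 118.0 kb against 175.0 kb. It also held the promoters of Atp2a3, Camkk1, P2rx1, Zzef1 and 1200014J11Rik.

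The other 17 integrin subunit genes all had islands in both lists. By counts, Itgb5 (0.96) was past the 1.5 ratio higher and Itga8 (-1.52) and Itga7 (-0.60) lower, and per kb none was. The median log2 ratio of the 17 was 0.04 by counts and -0.08 per kb. Among all genes, the comparison for this list and those below, 11.5% were past the ratio in each direction by counts. Per kb, 0.421% of all genes were higher and 9.28% lower, and their medians were -0.03 by counts and -0.16 per kb. Itga8 rested on 972 counts in WT and 236 in dKO, and Itgam and Itgad, whose windows share islands with Itgax, had -0.01 and -0.18. Among the 30 genes of integrin activation and signalling, 27 had islands in both lists, and Tln2, Fermt2 and Parva had none in either. Sipa1 (0.89), a GTPase-activating protein for Rap1, and Itgb1bp1 (0.60), which binds the beta1 tail, were higher by counts, and Ptk2 (-1.67), the focal adhesion kinase, was lower, with 13499 WT counts across 82.2 kb and 2965 dKO counts across 25.4 kb. Per kb Ptk2 had 0.03, while Itgb1bp1 (-0.65) and Stk4 (-0.73), the kinase Mst1, were lower. The talin and kindlin genes of leukocytes, Tln1 and Fermt3, had log2 ratios of 0.10 and 0.39 by counts and of -0.54 and -0.37 per kb. The median over the 27 genes was 0.02 by counts and -0.21 per kb.

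Of 10 ligand genes, 7 had islands in both lists, and Vcam1, Fn1 and Col4a1 had none in either. Madcam1, the ligand of the Itga4 and Itgb7 pair, was highest, with 160 WT counts across 1.2 kb and 1786 dKO counts across 14.4 kb, a log2 ratio of 4.0 by counts and 0.42 per kb. Lama5 (0.71), a laminin chain, was also higher by counts, and Jam2 (-0.71) was lower per kb. Icam1 and Icam2, ligands of LFA-1, had 0.04 and -0.03 by counts, and Cdh1, the E-cadherin gene, had 0.34. No gene of these lists was past the 1.5 ratio in the same direction by both measures.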

How the data were processed

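H3K27ac ChIP-seq of naive CD8+ T cells was analysed from the 2 deposited island lists, 1 per genotype (WT, 4 pooled samples; dKO, 3). Per the study's methods, the authors aligned reads to mm9 with Bowtie2 (2.2.5) after FastQC and called islands on pooled samples with SICER (1.1; window 200 bp, gap 400 bp, FDR 0.01). The deposited unit is the whole-number count of reads per island, scaled neither for depth nor for width. A stretch without an island has no count, and an island's count moves with its borders. The 2 inputs were not analysed here, and whether duplicates were removed is not given in the sources used here.

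Gene windows came from GENCODE vM1 on NCBIM37 (mm9), with the longest entry per symbol; a promoter was 1 kb either side of a TSS. An island overlapping a window by 1 bp gave it all its counts, and an island can serve several genes. Counts were divided by the list total; 95% intervals of ratios follow from the Wilson method. Python (3.11.15) was used. With pooled lists no test was run, and steps were checked on simulated data. The simulated genotypes had the same island borders, so effects of moved, joined or split islands were not checked. Named items were all 9 genes, their promoter islands, the strongest and the unshared islands, the intervals the study paired with them, and in the wider lists the genes past 1.5, together with further members named after their values were seen. The genes and lists were chosen with earlier results of these data known. SE calling did not subtract the input.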

Additional observations from a re-analysis of the deposited data

How the results depend on the processing

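No paired analysis was possible because each genotype has 1 pooled list and no value per replicate, and for the same reason no replicate could be left out. The number of integrin genes past the 1.5 ratio in the higher direction was 0 in the analysis as reported and became 1 with the gene body alone, 1 with 10 kb upstream, 2 with islands given to the nearest TSS and 3 with islands within 5 kb joined. Of all genes, 14.9%, 14.8%, 15% and 21.9% were higher under these settings, in the same order. In the lower direction the number was 0 and became 1 with joined islands (11.7% of all genes) and 1 with a ratio of 1.2. The number stayed at 0 in both directions under counts per kb, 50 kb on both sides of the gene or of the TSS, counts in proportion to the overlap, both other scalings, islands of at least 200 counts, a ratio of 2 and 10 counts added. The median log2 ratio of the 9 genes was 0.01 and moved to -0.15 per kb. With joined islands Itga4 went from -0.26 to 0.94, Itgae from 0.21 to 1.02 and Itga6 from -0.49 to -0.62, since joined islands reach far beyond the windows. Itga1 had no value with islands given to the nearest TSS. For the other subunits, the 1 gene higher became 3 with 50 kb on both sides, and the 2 lower became 1 with the gene body alone and 1 with 10 kb upstream. For activators, adaptors and ligands, the 4 higher became 1 and the 1 lower became 0 with 50 kb on both sides. Of all genes, 7.95% were higher and 10.1% lower with 50 kb on both sides. The lower share was 15% with the gene body alone and 13.4% with 10 kb upstream. The number of genes in an SE (6 in WT, 8 in dKO) stayed within 1.5 times at stitching distances of 5 and 20 kb. The depth of each sample is unknown, and pooling hides the spread between mice.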
